A study of Mus musculus with 12 samples.

Results

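Neurons package neuropeptides in dense-core vesicles, and 6 of the proteins stored or used there are described here at the level of their transcripts: *Vgf*, *Scg2*, *Chga*, *Chgb*, *Scg3* and *Scg5*. They were chosen by gene name, as the 6 loci of these names among the 20989 gene loci in each expression file. All 6 had a mean of at least 1 FPKM (fragments per kilobase of transcript, scaled to the total of the library), the level at which 12032 loci were tested.

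The tissue was auditory cortex from C57bl6/J mice that were 4 weeks old. Coronal slices of 350 µm recovered for 15 min and were split at the midline, and both hemispheres rested in artificial cerebrospinal fluid (aCSF) for 45 min. The control hemisphere then spent 1 h in fresh aCSF. The other hemisphere of the same mouse spent 1 h in cocktail aCSF with 50 µM bicuculline methiodide, which blocks GABA type A receptors, and with agonists of modulatory receptors: 100 µM norepinephrine, 50 µM carbamoylcholine, 100 µM dopamine and 100 µM serotonin, together with 40 µM ascorbic acid. Polyadenylated RNA was sequenced from 6 mice, giving 6 control and 6 cocktail libraries paired by mouse. By the study's methods, both hemispheres then rested again in aCSF for 1 h before the cortex was dissected, so RNA was taken after the cocktail had been removed. The comparison asks which transcripts differ in level at that time, after an hour in a mixture that drives network activity. The tissue is a whole cortical dissection, so a change in RNA per cell and a change in the number of cells that hold the transcript cannot be told apart.

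Granins are acidic secretory proteins that aggregate with calcium in the trans-Golgi network, where dense-core vesicles bud. Several are also prohormones, cut by convertases inside the vesicle into peptides that are released on strong or repeated stimulation. *Vgf* is known as a gene induced by nerve growth factor, neurotrophins and neuronal activity. Its peptides and those of *Scg2* act outside the cell, whereas secretogranin III and 7B2, the product of *Scg5*, mostly serve the vesicle itself.

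Many activity-induced promoters carry a cyclic AMP response element (CRE), the binding site of CREB family factors, so the member promoters were searched for its full form TGACGTCA and for its core TGACG on both strands. A window of 250 bases before the RefSeq start was found for 5 of the 6 members (build GRCm38.p6), all but *Vgf*. Each of the 5 held at least the core, and the stretch around it is shown 5′ to 3′ on the strand of the gene, with the full CRE or the core in capitals:
Scg2: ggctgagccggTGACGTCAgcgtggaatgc
Chgb: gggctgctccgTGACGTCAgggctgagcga
Chga: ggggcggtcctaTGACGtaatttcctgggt
Scg3: gcgctgggtcgcTGACGccatcctcacgcc
Scg5: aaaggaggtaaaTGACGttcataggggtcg

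The *Scg2* stretch is chr1:79440076-79440105 on the minus strand and its CRE lay at positions -68 to -61 relative to the RefSeq start. The *Chgb* stretch is chr2:132781559-132781588 on the plus strand, with the CRE at -72 to -65. Both elements overlap a GENCODE exon of their own gene, so annotated transcripts start farther upstream. The loci measured here start farther upstream too. That of *Chgb*, from 132781278, holds the whole element, and that of *Scg2*, from 79440090 on the minus strand, holds part of it. The cores of *Chga* (chr12:102554885-102554914, plus strand), *Scg3* (chr9:75684069-75684098, minus strand) and *Scg5* (chr2:113829249-113829278, minus strand) began at -44, -30 and -175 and overlap no annotated exon. A full CRE, which contains the core, was present in 1.62% of 27025 mouse promoter windows of the same length and the core in 17.9%. Neither the AP-1 motif TGANTCA, present in 6.87% of windows, nor the serum response element (CArG box), present in 1.4%, was found in these 5 windows. A match of letters does not show that a factor binds there.

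The libraries held between 10600193 and 19768184 reads assigned to genes, as recovered from the deposited FPKM and their confidence intervals. The library of control mouse 1 stood apart from the others: its median absolute distance from the median of all 12 libraries over the loci was 0.176 on the log2(FPKM + 1) scale, against 0.0576 to 0.0807 in the other 11. Member results on the FPKM scale are therefore also given without this mouse. The immediate early genes *Fos* and *Arc*, whose transcripts appear within minutes of synaptic activation, served as a check of the treatment. *Fos* rose from 322 ± 69.6 to 631 ± 79.5 FPKM (SD, n = 6) and *Arc* from 270 ± 27.0 to 477 ± 42.1 FPKM (SD, n = 6), with limma adjusted p = 2.92e-05 and 2.18e-05. Of the 12032 loci tested, 180 passed an adjusted p of 0.05 in limma with the mouse as a block, 147 of them higher and 33 lower in cocktail.

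Among the members, *Scg2* was the single transcript that passed the test, at 1.24 times its control level on the scale of FPKM + 1. *Vgf* was higher in cocktail in every mouse but missed the threshold. *Chga*, *Chgb*, *Scg3* and *Scg5* differed between the hemispheres by less than the spread between mice. So 1 of 6 members was called, against a background of 1.5% of loci called in either direction and 1.22% called higher. The members were chosen with earlier results of these data known, so these shares are descriptions and no test. *Vgf* and *Scg2* were higher in 6 of 6 mice, a pattern that 3.64% of all loci showed. No member had its control and cocktail values fully separated, which 0.715% of all loci did with the higher values in cocktail. The median log2 fold change was 0.08 over the 6 members and 0.0076 over all loci tested.

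*Scg2* encodes secretogranin II, the precursor of the peptide secretoneurin. It lies on mouse chromosome 1 (mm10, chr1:79434669-79440090, minus strand, 2 exons). In control hemispheres of mice 1 to 6 its level was 60.1, 77.4, 91.1, 74.7, 72.7 and 76.5 FPKM. In the matching cocktail hemispheres it was 95.0, 100.6, 96.0, 91.9, 85.5 and 90.2 FPKM. The groups overlapped through a single control library, that of mouse 3, which was above the cocktail libraries of mice 5 and 6. The mean rose from 75.4 ± 9.91 to 93.2 ± 5.21 FPKM (SD, n = 6), a log2 fold change of 0.31 (95% interval 0.17 to 0.45, limma adjusted p = 0.0350). The within-mouse rise of FPKM + 1 ranged from 5.40% in mouse 3 to 57.1% in mouse 1. An exact sign-flip permutation test of the 6 differences gave an unadjusted p = 0.03125. It is the smallest that 6 pairs allow, and any 6 differences of the same sign give it. Without mouse 1, the log2 fold change was 0.24 (limma adjusted p = 0.0249). The call was lost on leaving out mouse 2, 4, 5 or 6 (limma adjusted p = 0.142, 0.131, 0.0713 and 0.0670), with log2 fold changes of 0.30 to 0.33. It was also lost without the mouse as a block, without the filter on low values and without a trend in the variance (limma adjusted p = 0.0895, 0.129 and 0.0597).

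**Figure D1:**
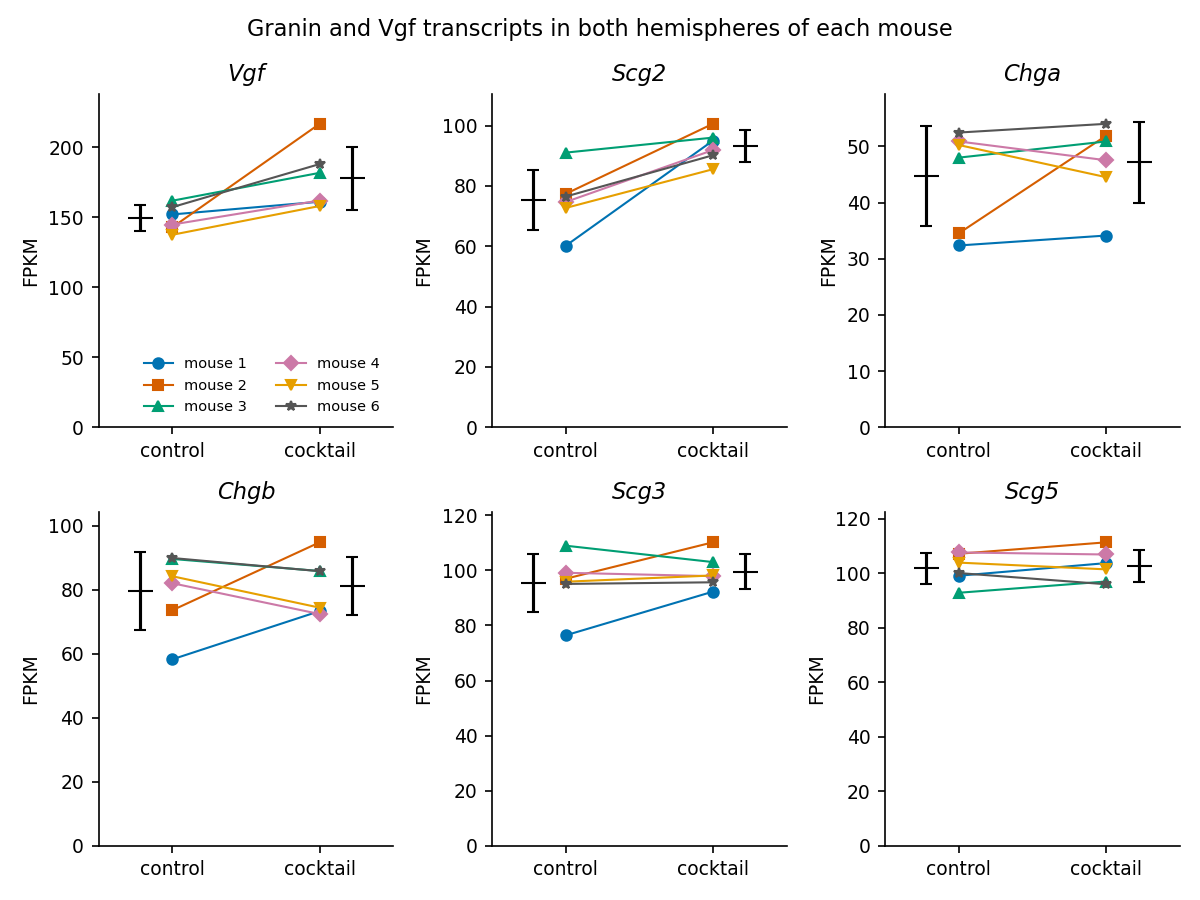
FPKM of the 6 transcripts in the control and the cocktail hemisphere of each mouse, 1 line per mouse, with the mean ± SD of 6 libraries beside each group and all axes starting at 0. All 6 lines slope upward for Vgf and for Scg2, and for Chga the low values are those of both mouse 1 libraries and of control mouse 2.

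*Vgf* encodes a neurosecretory protein precursor that is cut into several bioactive peptides, among them TLQP-21. Its locus on chromosome 5 (chr5:137030295-137033351, plus strand, 2 exons) had the highest level of the 6, at rank 266 of the 12032 loci tested. Control hemispheres of mice 1 to 6 held 152.1, 142.9, 161.9, 144.9, 137.5 and 157.3 FPKM. Their cocktail counterparts held 161.2, 216.9, 181.8, 162.0, 158.1 and 188.1 FPKM. The cocktail libraries of mice 1 and 5 were within the range of the controls, so the groups overlapped although each mouse had its higher value in cocktail. The mean was 149 ± 9.27 FPKM in control and 178 ± 22.6 FPKM in cocktail (SD, n = 6). The log2 fold change was 0.24 (95% interval 0.11 to 0.38), and the gene was not called (limma adjusted p = 0.104). The exact sign-flip permutation test gave p = 0.03125. Mouse 2 had the largest difference of FPKM + 1, 51.4%, and the other 5 mice ranged from 5.94% to 19.4%. Leaving out mouse 2 gave a log2 fold change of 0.17 (limma adjusted p = 0.185), and leaving out mouse 1 gave 0.28 (limma adjusted p = 0.0677).

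The size of the *Vgf* difference depended on the scale, most of all in mouse 1. The authors' Cufflinks step included bias correction, which weights reads by the sequence bias of their library, so the ratio of FPKM to RPM (reads scaled to the library total, with no length term) was computed for each gene and library. For *Vgf* this FPKM-per-RPM factor was 1.67 times as high in the highest as in the lowest of the 12 libraries, a spread wider than that of 98.8% of the 9647 loci with at least 100 reads in every library, and the lowest was control mouse 1. On the RPM scale, the *Vgf* value of control mouse 1 was 727, above all other libraries, and the other 5 controls held 421 to 525 RPM. The cocktail libraries held 537 to 642 RPM. Over all 12 libraries the 2 groups overlapped on this scale, and *Vgf* was higher in 5 of 6 mice. Its log2 RPM difference was -0.32 in mouse 1 and 0.03 to 0.39 in the other 5 mice. With all 6 mice, the log2 fold change of RPM was 0.15 (95% interval -0.02 to 0.32, limma adjusted p = 0.491). No fit on the RPM scale was made without mouse 1. *Scg2* was little touched by the choice of scale: its factor spread 1.24-fold over the libraries, against a median of 1.18 for all loci. Its level rose from 324 ± 32.2 to 395 ± 23.0 RPM (SD, n = 6), in 6 of 6 mice, with a log2 fold change of 0.29 (95% interval 0.18 to 0.40, limma adjusted p = 0.0101).

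**Figure D2:**
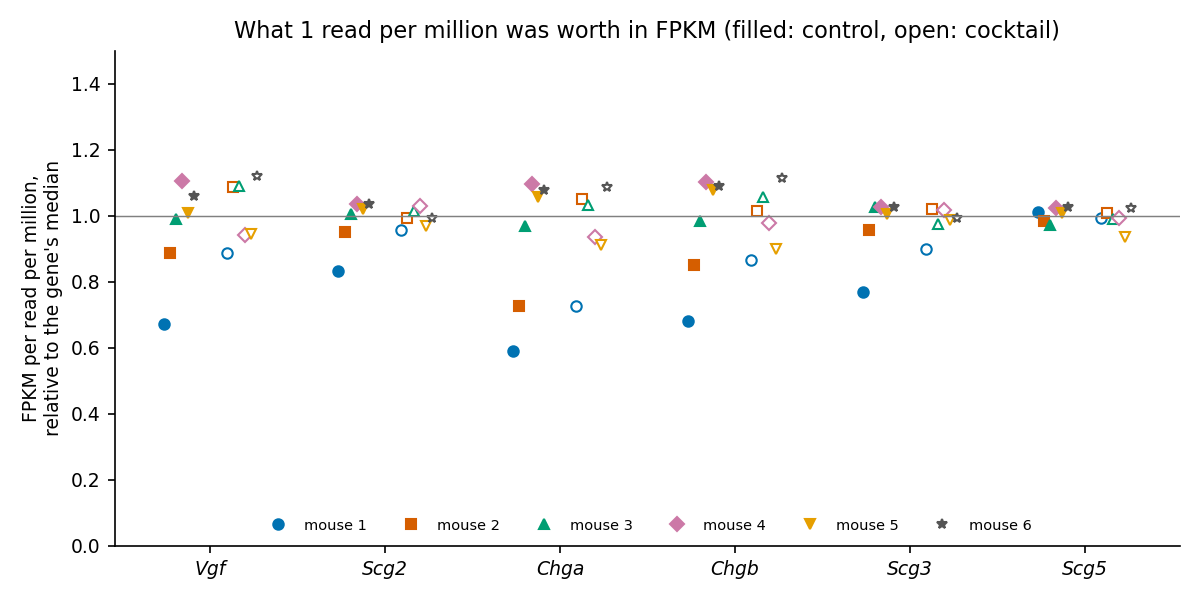
FPKM per RPM, divided by the gene's median over the 12 libraries (vertical axis, no unit), for each member and library; filled symbols are control, open symbols cocktail. Points of 1 gene would lie on the line at 1 if the 2 scales were proportional, and control mouse 1 is the lowest point for every member but Scg5.

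Chromogranin A and chromogranin B are the classical granins of endocrine granules and neurons, where they bind calcium and help the granule to form. The locus of *Chga* is on chromosome 12 (chr12:102554969-102565027, plus strand, 8 exons). Control libraries held 32.4 to 52.5 FPKM, with a median of 49.1, and cocktail libraries 34.1 to 54.0 FPKM, with a median of 49.2. The ranges of the 2 groups nearly coincided. The means were 44.7 ± 8.90 and 47.2 ± 7.22 FPKM (SD, n = 6), with a log2 fold change of 0.08 (95% interval -0.09 to 0.26, limma adjusted p = 0.880). The estimate rested on mouse 2, whose difference of FPKM + 1 was 48.9%, and turned to -0.01 without it (limma adjusted p = 0.9746), whereas without mouse 1 it was 0.09 (limma adjusted p = 0.821).

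On the RPM scale the *Chga* values drew together. Its FPKM-per-RPM factor spread 1.86-fold, wider than that of 99.7% of loci. The 3 libraries with the lowest *Chga* FPKM, control mice 1 and 2 and cocktail mouse 1, held 183, 159 and 157 RPM, and the remaining libraries held 155 to 170 RPM. The coefficient of variation over control libraries was 19.9% on the FPKM and 6.19% on the RPM scale, and over cocktail libraries it was 15.3% and 2.50%. The means were 164 ± 10.1 and 164 ± 4.10 RPM (SD, n = 6), the difference in mouse 2 was 0.06 on the log2 RPM scale, and the interval of the log2 fold change ran from -0.10 to 0.11.

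*Chgb*, on chromosome 2 (chr2:132781278-132795072, plus strand, 5 exons), held 58.2 to 89.9 FPKM in control libraries, with a median of 83.1. Cocktail libraries held 72.4 to 94.8 FPKM, with a median of 80.1. It was higher in cocktail in mice 1 and 2 and lower in the other 4. The means were 79.6 ± 12.1 and 81.1 ± 9.10 FPKM (SD, n = 6), with a log2 fold change of 0.03 (95% interval -0.13 to 0.20, limma adjusted p = 0.951). The sign changed with the setting: the log2 fold change was -0.02 without mouse 1 (limma adjusted p = 0.954) and -0.02 on the RPM scale (95% interval -0.11 to 0.08, limma adjusted p = 0.900). The promoter window of *Chgb* holds a full CRE, as that of *Scg2* does. The part of this element in the level of either gene was not tested, nor was the difference between the 2 genes.

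The remaining 2 members act on other cargo. Secretogranin III binds cholesterol-rich membrane and chromogranin A and helps to sort granins into the vesicle. Its gene *Scg3*, on chromosome 9 (chr9:75643366-75684056, minus strand, 12 exons), held 76.4 to 109.0 FPKM in control libraries, with a median of 96.4. Cocktail libraries held 92.3 to 110.2 FPKM, with a median of 98.0. Control mouse 1 was the lowest library by far, and all other values lay between 92.3 and 110.2 FPKM. The means were 95.4 ± 10.6 and 99.5 ± 6.29 FPKM (SD, n = 6), with 4 of 6 mice higher and a log2 fold change of 0.07 (95% interval -0.05 to 0.18, limma adjusted p = 0.841). Without mouse 1, the log2 fold change was 0.03 (limma adjusted p = 0.904), and on the RPM scale it was 0.04 (95% interval -0.04 to 0.12).

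*Scg5* encodes 7B2, the chaperone that the convertase PC2, product of *Pcsk2*, needs to become active. Its locus on chromosome 2 (chr2:113776313-113829091, minus strand, 6 exons) held 92.8 to 107.6 FPKM in control libraries, with a median of 101.9. Cocktail libraries held 95.9 to 111.3 FPKM, with a median of 102.5, and the ranges overlapped almost wholly. The means were 101.7 ± 5.61 and 102.6 ± 5.88 FPKM (SD, n = 6), with 3 mice higher and 3 lower. The log2 fold change of 0.01 (95% interval -0.08 to 0.10, limma adjusted p = 0.968) was close to 0 also without mouse 1 (0.0026, limma adjusted p = 0.990). Its sign turned under quantile normalization, to -0.01. The interval of the *Scg5* log2 fold change was the narrowest of the 6.

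**Figure D3:**
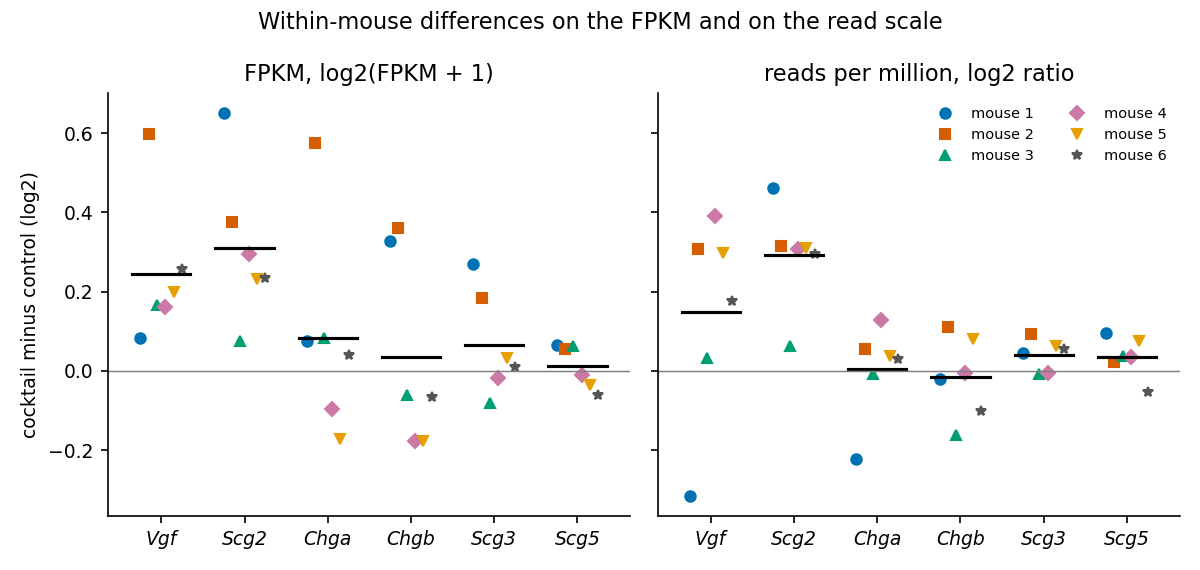
Within-mouse difference, cocktail minus control, of each member on the log2(FPKM + 1) scale (left) and as a log2 ratio of RPM (right); each symbol is a mouse and each bar the mean of 6. The high Vgf and Chga points of mouse 2, 0.60 and 0.57 on the left, are 0.31 and 0.06 on the right, and mouse 1 is at -0.32 for Vgf on the right.

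The 3 members with the widest FPKM-per-RPM factor were *Chga* (1.86-fold), *Vgf* (1.67-fold) and *Chgb* (1.64-fold), and they were also those with the highest GC content of the transcript, 58.4%, 64.8% and 53.9%. *Scg3* (1.34-fold), *Scg2* (1.24-fold) and *Scg5* (1.098-fold) had 46.5%, 46.8% and 48.1% GC. The part of GC content in this spread was not tested. Counting error was small beside these values, since the members had 1711 to 14363 recovered reads per library.

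On the FPKM scale, which is per transcript length, the members kept nearly the same order of level. The order was read on this scale, and the FPKM-per-RPM factor differed between genes and libraries. In every library *Vgf* was the highest and *Chga* the lowest in FPKM. In control mouse 5, reads per base of the GENCODE transcript put *Chgb* (474 RPM over 2740 bases) above *Vgf* (438 RPM over 2553 bases). *Scg5* was above *Scg3* in 10 of 12 libraries, and *Scg3* was above *Chgb* in 12 of 12. Reads per base of the GENCODE transcript gave the other order for *Scg3* and *Chgb* in the control means. *Chgb* held 503 RPM over 2740 bases and *Scg3* 330 RPM over 2384 bases. On the FPKM scale *Chgb* and *Scg2* changed places. *Chgb* was above *Scg2* in 3 of the 6 control libraries and in none of the 6 cocktail libraries. Reads per base put *Chgb* above *Scg2* in the mean of both groups. *Chgb* held 503 RPM in control and 498 RPM in cocktail over 2740 bases, and *Scg2* 324 and 395 RPM over 2515 bases. In control the FPKM neighbours *Scg5* and *Scg3*, and *Chgb* and *Scg2*, did not differ in FPKM beyond their spread. The 6 transcripts together came to 546 ± 39.3 FPKM in control and 602 ± 47.2 FPKM in cocktail (SD, n = 6), with ranges of 478 to 592 and 560 to 686 that overlapped. *Scg2* had the largest within-mouse rise of FPKM + 1 among the 6 in mice 1, 4 and 5, and *Vgf* in mice 2, 3 and 6. On the RPM scale the largest was *Scg2* in mice 1, 2, 3, 5 and 6, and *Vgf* in mouse 4. The margin was small in mouse 2 (log2 0.315 against 0.308 for *Vgf*) and in mouse 5 (0.311 against 0.298).

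The enzymes that process granins were measured next to their substrates, and none of 12 was called. Over all loci tested, 1.5% were called and 54.4% had a log2 fold change above 0. These shares are the background for this list and for those that follow. The list covers proprotein convertases (*Pcsk1*, *Pcsk2*, *Furin*, *Pcsk5*, *Pcsk6*, *Pcsk7*), carboxypeptidases (*Cpe*, *Cpd*), the amidating and cyclizing enzymes *Pam* and *Qpct*, the protease *Ctsl* and the convertase inhibitor precursor *Pcsk1n*. Of these, 9 had a log2 fold change above 0 and 3 below, with a median of 0.01. *Cpe*, which trims basic residues from peptide ends, was the most abundant at 896 ± 50.7 FPKM in control and 902 ± 31.6 FPKM in cocktail (SD, n = 6). *Pcsk1* was at 14.3 ± 3.66 and 15.4 ± 5.36 FPKM (SD, n = 6), a log2 fold change of 0.08 ± 0.08 (SE). *Pcsk2*, the partner of the *Scg5* product, was at 79.1 ± 7.78 and 74.7 ± 4.08 FPKM (SD, n = 6), a log2 fold change of -0.08 ± 0.05 (SE). *Ctsl*, cathepsin L, had the largest value, 37.9 ± 6.26 and 43.6 ± 6.88 FPKM (SD, n = 6), higher in 5 of 6 mice (log2 fold change 0.20, limma adjusted p = 0.110). The other 8 lay between -0.07 (*Pcsk1n*) and 0.10 (*Pcsk6*) on the log2 scale.

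Factors of dense-core vesicle formation and release were not called either. Of 21 names, 18 were tested, 10 of them above and 8 below 0, with a median of 0.01, while *Sytl4* and *Sytl5* were under 1 FPKM and *Eipr1* is listed as *Tssc1*. The 2 most abundant were *Rab3a*, a vesicle GTPase, at 388 ± 32.6 and 393 ± 15.4 FPKM (SD, n = 6), and *Ptprn*, a dense-core vesicle membrane protein, at 195 ± 15.0 and 188 ± 13.6 FPKM (SD, n = 6). Proteins of small synaptic vesicles, which release fast transmitters, gave 0 calls among 15, with 5 above and 10 below 0 and a median of -0.01. Their most abundant transcripts were *Snap25*, at 1092 ± 224 and 1112 ± 82.9 FPKM (SD, n = 6), and *Slc17a7*, the vesicular glutamate transporter, at 689 ± 38.0 and 660 ± 23.7 FPKM (SD, n = 6).

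Of other peptide and growth factor cargo of dense-core vesicles, 1 of 15 genes was called, beside 1.5% of all loci. *Bdnf*, brain-derived neurotrophic factor, rose from 13.6 ± 3.00 to 17.7 ± 4.31 FPKM (SD, n = 6), in 6 of 6 mice (log2 fold change 0.35, limma adjusted p = 0.0338). That call was lost without the mouse as a block (limma adjusted p = 0.864), without the filter on low values (limma adjusted p = 0.124) and on leaving out mouse 1, 2, 3, 4 or 6 (limma adjusted p = 0.0644 to 0.146). Of the 15 genes, 11 were above and 4 below 0, with a median of 0.09. The 2 most abundant, *Cck* at 349 ± 24.0 and 341 ± 28.1 FPKM and *Sst* at 293 ± 24.2 and 312 ± 17.0 FPKM (SD, n = 6), were not called. *Crh* had the largest log2 fold change, 0.38 ± 0.11 (SE), at 3.96 ± 1.36 and 5.31 ± 0.84 FPKM (SD, n = 6), and missed the threshold (limma adjusted p = 0.196).

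**Figure D4:**
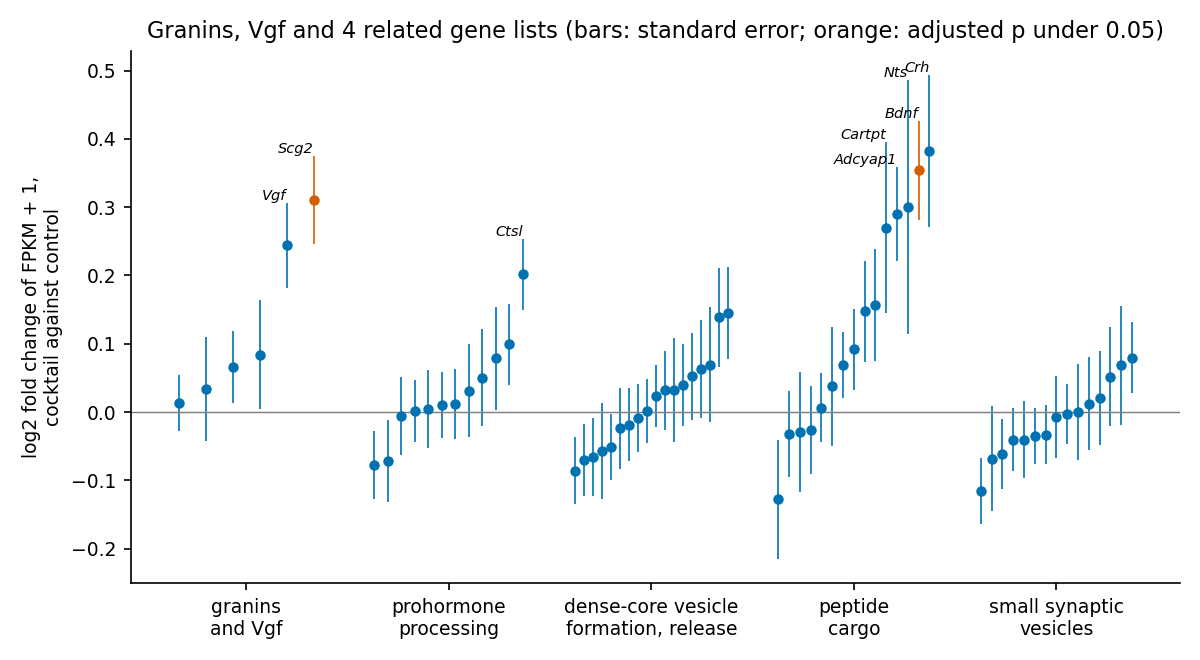
Log2 fold change of FPKM + 1, cocktail against control, for each tested gene of 5 lists (points, with standard errors as bars), ordered within a list, with genes of an adjusted p under 0.05 in orange and genes past 0.2 named. Scg2 and Bdnf are the 2 called genes, and the processing, formation and synaptic vesicle lists centre near 0.

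Genes tied to granin signalling and control were few. *C1qbp* and *C3ar1* encode proteins reported to bind the *Vgf* peptide TLQP-21, *Creb1* encodes CREB, and *Rest* and *Rcor1* encode a repressor of neuronal genes and its partner. None of the 4 tested was called, with 1 above and 3 below 0, and *Rest* was under 1 FPKM. *C1qbp* was at 27.1 ± 2.03 and 27.6 ± 1.42 FPKM and *Rcor1* at 6.69 ± 0.74 and 6.32 ± 0.43 FPKM (SD, n = 6).

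Cell type markers were set beside the *Scg2* and *Vgf* differences, and no marker was called. Of all loci tested, 1.5% were called and 54.4% were higher in cocktail. The labelled tissue showed its defining transcripts, with *Slc17a7* at 689 FPKM in control. Of 8 excitatory neuron markers 3 were higher in cocktail, with summed levels of 1372 to 1517 FPKM in control and 1294 to 1488 FPKM in cocktail. Of 8 inhibitory markers 7 were higher (465 to 528 and 498 to 547 FPKM), as were 7 of 8 astrocyte markers (478 to 633 and 580 to 645 FPKM) and 5 of 8 microglial markers (125 to 142 and 124 to 155 FPKM). All 8 oligodendrocyte markers were higher, by a median of 0.10 on the log2 scale, with sums of 2200 to 2793 and 2496 to 2859 FPKM. Endothelial markers were higher in 5 of 8 (70.4 to 79.7 and 66.7 to 82.5 FPKM). Of the regional lists, 1 of 5 striatal, 2 of 6 thalamic and 4 of 5 hippocampal markers were higher, and choroid plexus markers summed to at most 1.83 FPKM. Of 4 blood genes, 2 were single loci, and their sum stayed under 1 FPKM. The part of cell composition in the member differences was not tested.

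The transcripts whose level most resembled each member over the 12 libraries were found by Pearson's r of log2(FPKM + 1) among 8522 loci with a mean of at least 5 FPKM. Libraries of the same mouse or the same treatment are not independent, and the libraries differ in depth, so these values are descriptions. For *Vgf* they included *Psmg1* (r = 0.78), *Ier5* (0.77), *Ets2* (0.75) and *Ina* (0.72), of which *Ier5*, an immediate early gene, and *Ina*, a neurofilament protein, were called higher in cocktail (limma adjusted p = 0.000601 and 0.0395). For *Scg2* they were *Rgs4*, a regulator of G protein signalling (0.91), and *Hnrnpll* (0.91). *Rgs4* was called as well, at 239 ± 22.9 and 296 ± 23.0 FPKM (SD, n = 6, limma adjusted p = 0.0494). *Ier5* was called under all 15 alternatives to the fit, whereas *Rgs4* was called under 5 and *Ina* under 3. The genes found for the other members were not called: *Gabarapl1* (0.98) and *Podxl2* (0.98) for *Chga*, *Zfp326* (0.97) and *Anp32e* (0.96) for *Chgb*, *Taf11* (0.95) and *Rnf115* (0.94) for *Scg3*, and *Iffo2* (0.90) and *Cldn12* (0.89) for *Scg5*. For *Chga*, *Gabarapl1* and *Podxl2*, the coefficient of variation over control libraries was 19.9%, 10.8% and 30.7% on the FPKM scale. On the RPM scale it was 6.19%, 2.10% and 9.94%. The part of the FPKM-per-RPM factor in these r values was not tested.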

How the data were processed

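Auditory cortex RNA was measured in 12 libraries, 6 control and 6 cocktail, grouped and paired by mouse from the labels. The authors deposited 1 Cufflinks file per library with an FPKM per RefSeq locus and its confidence bounds. The submitters' processing notes name BWA 0.6.1, TopHat 1.4.1, Cufflinks 1.3.0, HTSeq 0.6.1p1 and DESeq2 1.6.3 on mm10. FPKM estimation included bias correction and fragments compatible with protein-coding RefSeq genes, per the authors. The reads were strand-specific, but the strand setting of Cufflinks is not given in the sources used here. A deposited table of the authors' own comparison (mean counts, fold changes, p-values, group means and SDs) was not used. log2(FPKM + 1) of the 12032 loci with a mean of at least 1 FPKM was fitted with limma 3.58.1 (trend, mouse as block) in R 4.3.3, with Benjamini-Hochberg adjustment over all loci and calls at an adjusted p under 0.05. The script was tested on simulated data. Python 3.11.15, scipy 1.17.1 and matplotlib 3.10.9 gave exact two-sided sign-flip tests and plots.

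Reads per locus were recovered from the FPKM and its upper bound, taken as 2 Poisson SDs. Of 36158 values under 20 reads, 83.2% came out whole within 0.05. Control libraries held 10600193 to 19768184 reads and cocktail libraries 13539422 to 17506709, and this depth speaks to counting error only. The fit of log2(RPM + 1) was chosen after seeing the data. The label gives both hemispheres of a number the same mouse, and same-mouse deviations from the group means correlated at r = 0.22 to 0.41 in 6 of 6 pairs (median 0.34), against -0.42 to 0.45 in 30 pairs of different mice (median -0.07). No 2 libraries of the same group were copies, since the chi-square per locus between them was at least 3.37. Control libraries were not compared with cocktail libraries in this way.

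Named genes were all members and processing enzymes, in each other list the called genes and the 2 of highest mean FPKM, *Fos* and *Arc*, and the genes of highest r (5 for *Vgf*, 2 for each other member); marker genes are given as counts. A gene that this rule names is not reported here. *Crh*, *C3ar1*, *Creb1*, *Rest*, *Sytl4*, *Sytl5* and *Eipr1* were named after their values were seen. The members and lists were chosen with earlier results of these data known. Gene models and promoter windows come from GENCODE and RefSeq for the same assembly. Alternatives were other filters, scalings, pseudocounts and models, and leaving out each mouse.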

Additional observations from a re-analysis of the deposited data

Results flagged for a closer look

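In 54 groups of 6 values, 5 had a sample far from the others by Dixon's test, where chance gives 2.7 (about 1 in 20). For *Vgf*, the within-mouse difference of mouse 2 was 0.5985 on the log2(FPKM + 1) scale, beside 0.08 to 0.26 in the other 5 mice. For *Chga*, the difference of mouse 2 was 0.5746, beside -0.17 to 0.08. Control mouse 1 had 278.7 FPKM of *Pcsk1n*, a gene for a precursor of a convertase inhibitor, beside 203.5 to 216.3 FPKM in the other 5 controls. The same library had 13.69 FPKM of the carboxypeptidase gene *Cpd*, beside 15.5 to 16.5 FPKM. For *Ctsl*, the difference of mouse 6 was -0.03941, beside 0.18 to 0.30 in the other 5 mice. On the RPM scale the mouse 2 differences were 0.31 for *Vgf* and 0.06 for *Chga*. The cause was not tested.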

How the results depend on the processing

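The 180 loci called became 88 without the replicate block (87.5% of them higher, against 81.7% with the mouse as block) and 79 with a minimum absolute log2 fold change of 0.5. Leaving out each mouse in turn gave 104 (without mouse 4) to 181 loci and 0 to 1 of the members called. The number of members called, 1 (*Scg2*), became 0 without a filter on low values (adjusted p = 0.129 in limma), without the replicate block (0.0895), without a trend in the variance (0.0597), with the minimum fold change, and without mouse 2, 4, 5 or 6. *Scg2* was called under 8 of 15 alternatives to the fit, with log2 fold changes of 0.24 to 0.36 and limma adjusted p = 0.0101 to 0.142. *Vgf* was called under 0 of 15, at 0.14 to 0.28 and limma adjusted p = 0.0677 to 0.502, and its lowest values were those on reads. A filter at a mean of 5 FPKM gave 131 loci, of which 94.7% were higher. Apart from the counts named here, the counts of loci stayed within 1.5 times the reported one, at 120 to 236. Of the single genes, *Ctsl* gained a call without mouse 6 (limma adjusted p = 0.0313), and 36 combinations of a gene and an alternative lost a call. A further 626 kept their side of the threshold, and 0 called values changed sign. The 626 include the sign-flip test of each member on plain FPKM, which was read at an unadjusted p. The causes were not tested.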
